A study of Mus musculus with 14 samples.

Results

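The mTOR kinase pathway was followed in mouse cerebral cortex through 10 of its core genes, taken from the deposited gene table by their symbols: Mtor, Rptor, Rictor, Tsc1, Tsc2, Rheb, Akt1, Rps6kb1, Eif4ebp1 and Eif4ebp2. All 10 were among the 23412 genes of the table. The study compared Fmr1 knock-out mice (KO), which lack the fragile X RNA-binding protein FMRP, with control mice, by RNA-seq and by ribosome profiling, which sequences the short mRNA fragments covered by ribosomes (footprints). Per the labels, both genotypes carried a floxed Rpl22 gene on both chromosomes, the RiboTag allele, and a Cre recombinase transgene driven by CamK sequences, and the KO mice were in addition Fmr1X-Y, males with the Fmr1 knock-out on their X chromosome. The RNA libraries came from control mice 1, 3, 6 and 8 and KO mice 2, 4, 5 and 7. The footprint libraries came from control mice 1, 3 and 9 and KO mice 2, 4 and 10. Cre from a CamK promoter acts in part of the cortical neurons, but the labels' protocols name no pull-down of tagged ribosomes, so the libraries are of bulk cortex. Ages are not in the labels. The labels give each library a mouse of its own within an assay, and the p-values below measure the spread between those libraries.

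mTOR is a protein kinase that matches cell growth to nutrients, energy and growth factors. It works in a pair of complexes, mTORC1 with the scaffold Raptor (Rptor) and mTORC2 with Rictor. The small GTPase Rheb switches mTORC1 on at the lysosome, and the TSC complex of Tsc1 and Tsc2 keeps Rheb off until AKT, itself a substrate of mTORC2, phosphorylates Tsc2. Active mTORC1 phosphorylates S6 kinase (Rps6kb1) and the 4E-BP repressors (Eif4ebp1 and Eif4ebp2), which releases the cap-binding protein eIF4E for translation. In neurons the pathway is known for its part in protein synthesis after synaptic stimulation, and loss of TSC genes is a known cause of epilepsy and autism-like traits. Counts of RNA and footprints do not measure kinase activity or phosphorylation.

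Translation of many ribosomal protein mRNAs responds to mTORC1 through a 5′ terminal oligopyrimidine (TOP) motif, a C at the first base followed by a run of pyrimidines (C or T), so the first bases of the members are shown for the 5 genes on which the results below turn. The sequences are from RefSeq on GRCm38.p6, 5′ to 3′ on the gene's strand, with 10 bases before the annotated start in lower case and the first 20 bases from it in capitals. Mtor lies on the plus strand at chr4:148448572-148448601, Rptor on the plus strand at chr11:119602895-119602924, Tsc2 on the minus strand at chr17:24632608-24632637, Rheb on the minus strand at chr5:24842342-24842371 and Eif4ebp2 on the minus strand at chr10:61452650-61452679.
Mtor: cctccccaccTCCCTGGCCTAGAAGACAGC
Rptor: gggggaagggAGGACGGAACACCGAGCTCT
Tsc2: ccccggaagtACGGGTTGCGCTTCCGGCAG
Rheb: cgagaggcagCCGCGCCCGCCGCCGTGCTC
Eif4ebp2: cgcagcgggaCGACCGGGCGAGAGCAGGCG
The Mtor window opened with 5 pyrimidines, the first of them T, and the Tsc2 window held a run of 5 from its base 11. The Rheb window opened with 2 pyrimidines and the Eif4ebp2 window with 1, in both cases a C, and the Rptor window opened with an A. None of the 10 start windows found for 9 of the members (0 of 10, Akt1 having 2) began with C and at least 4 further pyrimidines, read on the gene's strand only. That pattern began 2.31% of 19844 windows of genes in the table and 13 of 72 windows of ribosomal protein genes (18.1%). A run of at least 5 pyrimidines anywhere in the 20 bases was in 2 of the 10 member windows and in 32.8% of all windows. A match is a description of the annotated start and not of the start used in these mice.

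Total counts were between 8847547 and 11371851 per RNA library and between 4124065 and 6033030 per footprint library. The 10 genes took 0.104 to 0.111% of the RNA counts and 0.0835 to 0.0873% of the footprints. Levels are given below as CPM (counts scaled to a common library size) after TMM scaling within an assay, and they are not corrected for gene length. The check of the labels held in both assays: Fmr1 was at 83.0 ± 8.37 CPM (SD, n = 4) in control and 21.7 ± 2.40 CPM (SD, n = 4) in KO RNA, and at 114 ± 2.0 CPM (SD, n = 3) and 7.46 ± 1.43 CPM (SD, n = 3) in footprints. KO mice 2, 4 and 7 stood close together in RNA, where chi-square divided by its degrees of freedom was 1.18 to 1.32 for their 3 pairs, against 1.99 to 11.8 in the other 9 same-genotype pairs, and fits with them summed to 1 library are given where they matter. The 6 same-genotype footprint pairs were as close, at 1.20 to 1.46, against 12.6 to 15.5 between genotypes. Summing those would leave 1 footprint library per genotype and no test, so the footprint p-values rest on libraries that differed little beyond counting error, and whether that spread is the spread between mice was not tested. The summed level of 6 excitatory neuron markers was at least 2495 CPM in each RNA library. No level was set at which the cortical labels would fail, and no library of another region was compared. The sum therefore did not test those labels. That sum was 2495 to 2768 CPM in control RNA and 3137 to 3411 CPM in KO RNA, with 2 of the 6 called higher, whereas the sum over 6 oligodendrocyte markers was 4888 to 5331 CPM in control and 4271 to 4598 CPM in KO RNA, with 1 of the 6 called lower. In footprints the excitatory sum was 5576 to 5721 CPM in control and 5366 to 5629 CPM in KO mice (3 of 6 called higher and 1 lower), and the oligodendrocyte sum 8213 to 8372 and 8025 to 8067 CPM (1 of 6 called higher and 3 lower). The sum over 6 inhibitory neuron markers was 1625 to 1671 CPM in control and 1698 to 1724 CPM in KO footprints (3 called higher and 1 lower), and 816 to 849 and 819 to 957 CPM in RNA (1 called higher and 1 lower). Of 6 astrocyte markers 2 were called lower in RNA, where their sum was 2992 to 3193 CPM in control and 3072 to 3808 CPM in KO mice. In footprints the astrocyte sum was 4714 to 4778 and 4735 to 4767 CPM (1 called higher and 2 lower). The sum over 4 hypothalamus markers was 31.3 to 61.3 CPM in control and 12.8 to 18.7 CPM in KO RNA, and 89.4 to 97.7 and 32.1 to 34.6 CPM in footprints, with 3 and 4 of the 4 called lower. Striatum markers summed to 419 to 443 CPM in control and 383 to 417 CPM in KO footprints (1 of 3 called lower), and to 160 to 203 and 192 to 206 CPM in RNA (0 called). Choroid plexus markers summed to 5.91 to 9.01 CPM in control and 3.09 to 5.16 CPM in KO footprints (1 of 2 tested called lower), and in RNA they ranged from 8.47 to 276 CPM among control and 4.36 to 115 CPM among KO libraries (0 called). The sums of the microglia, endothelium and blood lists overlapped between genotypes in both assays. Of all markers examined Hba-a1 was at 0 in every library. As background to the counts of called markers, 7.41% of all genes were called in RNA (3.53% higher and 3.88% lower). In footprints 25.5% of all genes were called (11.9% higher and 13.6% lower). The part of these marker differences in the values below was not tested. In bulk tissue fewer cells of a type and less RNA per cell cannot be told apart.

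Across the 10 genes, Mtor footprints fell in the KO cortex, and no other member passed the test in RNA, in footprints or in the ratio of the 2. Differences are given as log2 fold changes of KO over control with their standard error from edgeR's quasi-likelihood fit, and a gene is called at a Benjamini-Hochberg adjusted p under 0.05 over all genes tested. In RNA 0 of the 10 members were called, where 7.41% of 13507 genes were (3.53% higher and 3.88% lower), and 2 of the 10 (Rptor and Eif4ebp2) had an unadjusted p under 0.05. DESeq2 called 0 of the 9 to which it gave an adjusted p. In footprints 1 of the 10 was called, where 25.5% of 12158 genes were (11.9% higher and 13.6% lower). For the footprint level relative to RNA (translational efficiency, TE, tested as the interaction of genotype and assay over the 14 libraries), 0 of the 10 were called by edgeR and 0 of the 8 with an adjusted p by DESeq2, 3 of the 10 (Mtor, Rptor and Eif4ebp2) had an unadjusted p under 0.05, and 7.81% of 12145 genes were called (3.4% higher and 4.41% lower). The members' median log2 fold change was 0.02 in RNA, -0.06 in footprints and -0.09 in TE, beside medians over all genes tested of -0.00, 0.01 and -0.01. All 10 TE values were below 0, as were 51.8% of all genes, but on plain library sizes, which moved the median of all genes by under 0.1, 6 of the 10 were, and with exon counts as the RNA measure 7 of the 10.

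**Figure D1:**
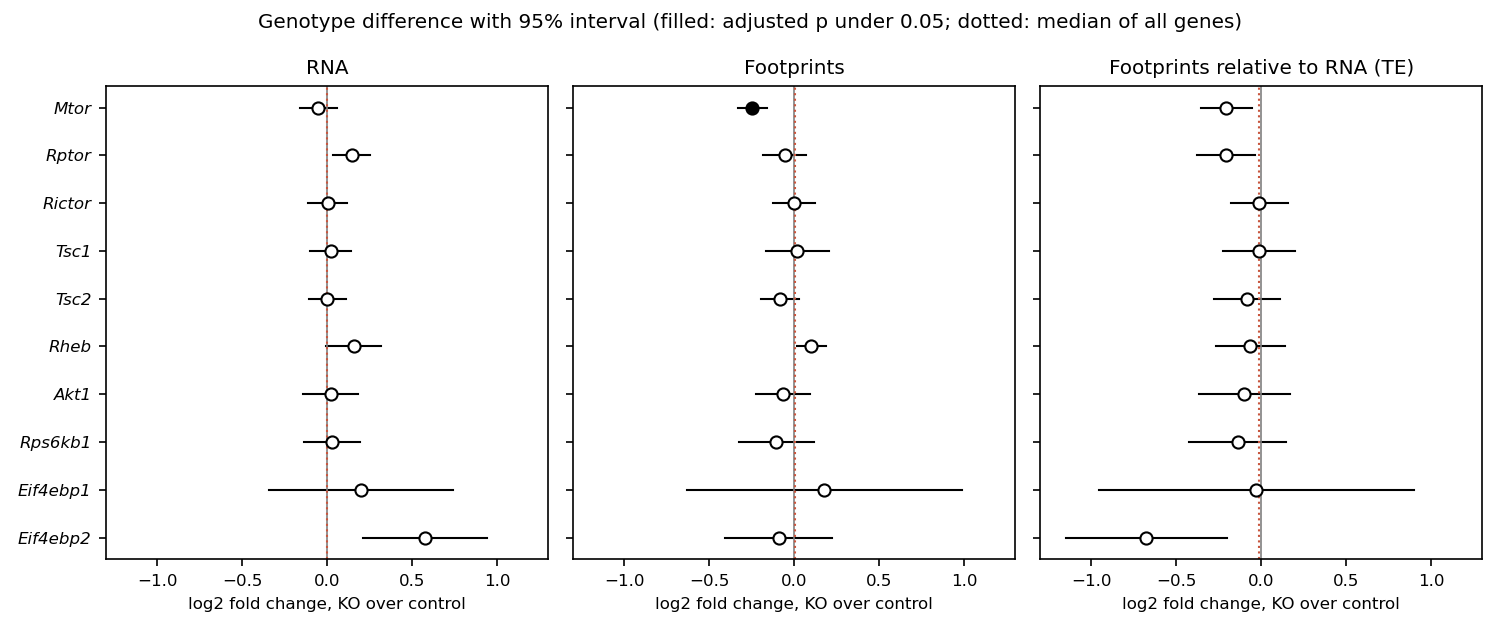
Log2 fold change of KO over control (x axis) for the 10 genes, with 95% intervals, in RNA (4 against 4 libraries), footprints (3 against 3) and TE (14 libraries). The filled point, Mtor in footprints at -0.25, is the 1 member called at an adjusted p under 0.05, and the dotted line is the median of all genes.

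Mtor, the kinase itself, carried fewer footprints in KO cortex at an RNA level that was not called different. Its RNA was at 274, 262, 266 and 252 CPM in control mice 1, 3, 6 and 8, and at 253, 249, 266 and 251 CPM in KO mice 2, 4, 5 and 7. The genotypes overlapped in RNA, with KO mouse 5 as high as control mouse 6 and control mouse 8 among the other KO mice. The difference was -0.05 ± 0.050 (SE, 95% interval -0.16 to 0.06, adjusted p = 0.590, edgeR). Footprints were at 229, 221 and 233 CPM in control mice 1, 3 and 9, and at 190, 183 and 201 CPM in KO mice 2, 4 and 10. Each KO library lay below each control library, and non-overlap of this kind was seen in 37.3% of all genes (18.1% with KO higher and 19.2% with KO lower). The means were 227 ± 6.13 CPM (SD, n = 3) and 191 ± 8.95 CPM (SD, n = 3), which differ by -0.25 ± 0.042 on the log2 scale (SE, 95% interval -0.33 to -0.16, adjusted p = 1.67e-06, edgeR), or 0.843 of control. Ranked by p, Mtor was gene 640 of 12158. The fall passed the test in each of 13 alternatives, at -0.29 to -0.19 with adjusted p between 1.72e-07 and 0.00406. Within the title prefixes that the labels give to mice 1 and 2, 3 and 4, and 9 and 10, KO minus control was -0.27, -0.27 and -0.21. A table gene, Angptl7, overlaps Mtor on the annotation, and the strand setting of the counting is not given in the sources used here.

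The TE of Mtor was not called. In the mice present in both assays, the ratio of footprint CPM to RNA CPM was 0.836 and 0.841 in control mice 1 and 3 and 0.752 and 0.736 in KO mice 2 and 4. Both KO mice lay below both control mice, but the share of all genes with that order was not determined. KO mice 2 and 4 were also among the RNA libraries that stood close together. Over all libraries TE differed by -0.20 ± 0.071 (SE, 95% interval -0.35 to -0.06, adjusted p = 0.0797, edgeR). The adjusted p ranged from 0.0483 to 0.241 over 22 alternatives, each with a value below 0, and passed 0.05 only in limma's voom with library weights (-0.17).

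**Figure D2:**
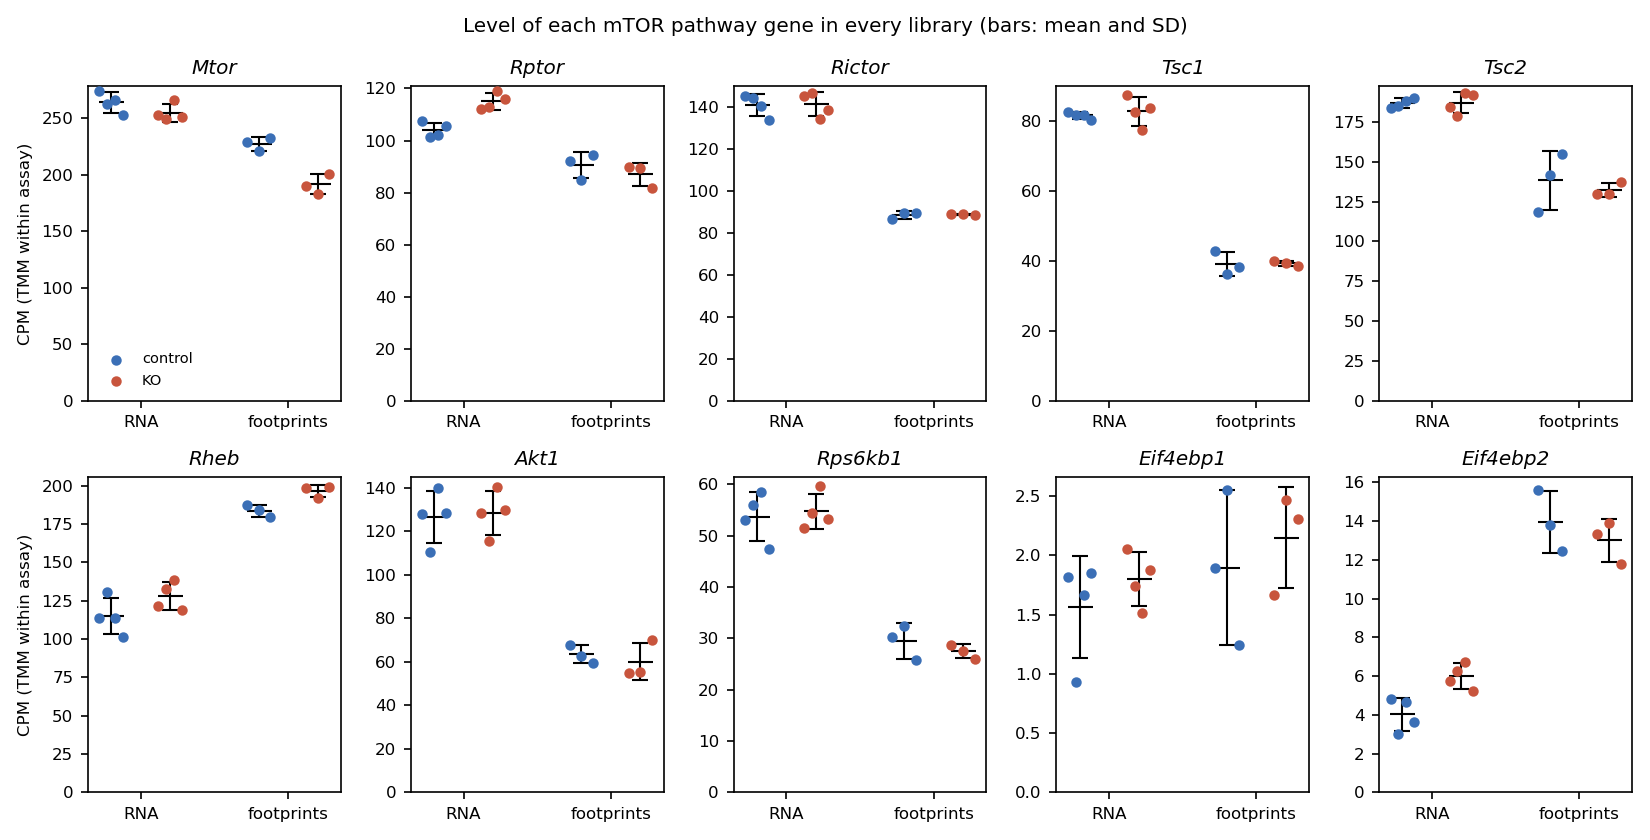
CPM (y axis, TMM within each assay, from 0) of the 10 genes in every RNA and footprint library, with 1 point per mouse and bars for the mean and SD. Mtor footprints sit at 183 to 201 CPM in the 3 KO mice and at 221 to 233 CPM in the 3 controls, and Eif4ebp2 RNA at 5.24 to 6.74 CPM in the 4 KO mice and 3.01 to 4.84 CPM in the 4 controls.

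Among the genes whose pattern was most like that of Mtor were Gbf1, Ncdn, Aldh18a1 and D10Bwg1379e. Likeness was the root-mean-square difference in log2 CPM (0.5 CPM added), centred within each assay, over the 14 libraries. It was between 0.0390 for Gbf1, an exchange factor of the Golgi, and 0.0412 for D10Bwg1379e. Footprints of these 4 genes differed between genotypes by -0.29 (Gbf1), -0.19 (Ncdn), -0.23 (Aldh18a1) and -0.28 (D10Bwg1379e), values that the measure of likeness had used. The member nearest to Mtor was Rictor, at rank 1287 of 12144 genes, although its log2 fold change was 0.00 in RNA and in footprints. The farthest was Eif4ebp1 at rank 11107, with 9 to 21 counts per RNA library and 7 to 15 per footprint library. The measure was not scaled for counting error, so these ranks do not show shared or opposite behaviour.

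Rptor, the scaffold that brings substrates to mTORC1, was higher in each KO RNA library than in each control library without passing the test. Its RNA was at 107, 101, 102 and 105 CPM in control mice 1, 3, 6 and 8, and at 112, 113, 119 and 116 CPM in KO mice 2, 4, 5 and 7. The 2 ranges did not overlap, as in 15.1% of all genes (7.1% with KO higher and 7.97% with KO lower). The difference was 0.14 ± 0.051 (SE, 95% interval 0.04 to 0.25, adjusted p = 0.0984, edgeR), and over 19 alternatives it lay between 0.12 and 0.18 with adjusted p between 0.0510 and 0.513. Rptor footprints, at 92.2, 84.8 and 94.5 CPM in control and 89.9, 89.3 and 81.9 CPM in KO mice, overlapped. Their difference was -0.06 ± 0.064 (SE, adjusted p = 0.579, edgeR), and the TE difference was -0.21 ± 0.083 (SE, 95% interval -0.38 to -0.04, adjusted p = 0.126, edgeR).

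Rictor, which defines mTORC2, had the smallest difference of the 10 genes in footprints. In RNA it was at 145, 144, 141 and 134 CPM in control mice and 145, 147, 134 and 139 CPM in KO mice. In footprints it was at 86.6, 89.6 and 89.7 CPM in control and 88.9, 89.1 and 88.4 CPM in KO mice. The genotypes overlapped in both. The interval of the difference was -0.11 to 0.12 in RNA (log2 fold change 0.00) and -0.12 to 0.12 in footprints (log2 fold change 0.00), and the adjusted p was 0.977 and 0.998 (edgeR).

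Of the TSC brake, neither gene was called. Tsc1, the stabilizing partner, was at 82.7, 81.8, 81.9 and 80.4 CPM in control RNA and 87.5, 82.8, 77.4 and 83.8 CPM in KO RNA. Its footprints were at 42.8, 36.2 and 38.4 CPM in control and 39.9, 39.5 and 38.6 CPM in KO mice. The KO values lay on both sides of the controls in RNA and between them in footprints, with differences of 0.02 ± 0.056 (SE, adjusted p = 0.858) and 0.02 ± 0.094 (SE, adjusted p = 0.912, edgeR). Tsc2, which carries the GAP activity toward Rheb, was at 184, 185, 188 and 190 CPM in control RNA and 184, 179, 193 and 192 CPM in KO RNA, a difference of 0.00 ± 0.050 (SE, adjusted p = 0.987, edgeR). Tsc2 footprints were at 118, 142 and 155 CPM in control mice 1, 3 and 9 and at 130, 130 and 137 CPM in KO mice 2, 4 and 10. Control mouse 1 lay below each KO mouse and the other two controls above each of them. The difference was -0.08 ± 0.056 (SE, adjusted p = 0.314, edgeR). It was called without mouse 1 (-0.16, adjusted p = 0.0225, edgeR) and was 0.00 without mouse 9 (adjusted p = 0.984, edgeR), and the adjusted p was 0.0225 to 0.984 over all 13 alternatives. The end of Tsc2 overlaps Pkd1, which is also in the table.

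Rheb, the GTPase that switches mTORC1 on, had KO footprints above each control library, also without passing the test. They were at 188, 184 and 179 CPM in control mice 1, 3 and 9 and at 199, 192 and 199 CPM in KO mice 2, 4 and 10. The ranges did not overlap, as in 18.1% of all genes in that direction. The difference was 0.10 ± 0.043 (SE, 95% interval 0.02 to 0.19, adjusted p = 0.0754, edgeR), and it was called only on plain library sizes (0.16, adjusted p = 0.00245, edgeR), with adjusted p up to 0.446 in the 13 alternatives. Rheb RNA was at 114, 130, 114 and 102 CPM in control and 122, 133, 139 and 119 CPM in KO mice. These overlapped, and the difference was 0.16 ± 0.075 (SE, adjusted p = 0.228, edgeR), or 0.01 in the exon counts of the same libraries (adjusted p = 0.930, edgeR). The TE difference was -0.06 ± 0.098 (SE, adjusted p = 0.750, edgeR).

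Akt1, the kinase that links PI3K signalling to the TSC complex, was not called in either assay. Its RNA was at 128, 111, 140 and 128 CPM in control mice 1, 3, 6 and 8 and at 128, 116, 140 and 130 CPM in KO mice 2, 4, 5 and 7. The spread within a genotype was far wider than the difference, which was 0.02 ± 0.075 (SE, adjusted p = 0.902, edgeR). Footprints were at 67.9, 62.9 and 59.7 CPM in control and 54.9, 55.4 and 69.9 CPM in KO mice. KO mice 2 and 4 lay below the controls and KO mouse 10 above them, and the difference was -0.07 ± 0.079 (SE, adjusted p = 0.599, edgeR). The TE difference of Akt1 was -0.10 ± 0.13 (SE, adjusted p = 0.698, edgeR) without a term for the mouse. With mouse number as a replicate block, pairing the assays of mice 1 to 4, it was -0.29 and was called (adjusted p = 0.0494, edgeR), and over its 22 alternatives the adjusted p ran from 0.0494 to 0.928. The footprint CPM per RNA CPM of Akt1 was 0.531 and 0.569 in control mice 1 and 3 and 0.428 and 0.480 in KO mice 2 and 4.

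Among the effectors, Rps6kb1, the S6 kinase, was at 53.1, 55.9, 58.5 and 47.5 CPM in control RNA and 51.6, 54.5, 59.7 and 53.3 CPM in KO RNA. Its footprints were at 30.3, 32.5 and 25.8 CPM in control and 28.8, 27.6 and 26.0 CPM in KO mice. Both assays overlapped, with differences of 0.03 ± 0.077 (SE, adjusted p = 0.874) and -0.10 ± 0.11 (SE, adjusted p = 0.545, edgeR), and Rnft1 in the table overlaps the gene. Eif4ebp1, a repressor of cap-dependent translation, was at the low end of what these libraries could measure, with 9 to 21 counts per RNA library and 7 to 15 per footprint library. Its intervals were accordingly wide, reaching from -0.34 to 0.74 for RNA, from -0.63 to 0.99 for footprints and from -0.96 to 0.90 for TE, so that a change of the size seen for Mtor was not detectable for Eif4ebp1.

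Eif4ebp2, the 4E-BP known as the main form in neurons, had the largest RNA difference of the 10 genes, at the edge of the threshold. Its RNA was at 4.84, 3.01, 4.65 and 3.61 CPM in control mice 1, 3, 6 and 8 and at 5.76, 6.28, 6.74 and 5.24 CPM in KO mice 2, 4, 5 and 7, from 29 to 48 and 53 to 72 counts. Each KO library lay above each control library, as in 7.1% of all genes (15.1% in either direction). The difference was 0.58 ± 0.17 (SE, 95% interval 0.21 to 0.94, adjusted p = 0.0547, edgeR), 1.49 times the control level. It was called in 3 of 19 alternatives: in one fit over the 14 libraries (0.58, adjusted p = 0.0173), in the exon counts (0.61, adjusted p = 0.00988) and with only mice 1 to 4 (0.62, adjusted p = 0.0464, edgeR). The adjusted p was 0.209 with KO mice 2, 4 and 7 summed, 0.277 with control mice 1 and 3 summed as well, and 0.423 with only mice 5 to 8 (0.54), the highest value of the 19. Within title prefixes KO minus control was 0.25 for mice 1 and 2, 1.06 for mice 3 and 4 and 0.54 for mice 5 to 8. In the exon counts, 101 to 230 per library, the levels were 6.31 ± 1.06 CPM (SD, n = 4) in control and 9.62 ± 0.936 CPM (SD, n = 4) in KO mice.

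The footprints of Eif4ebp2 were not called different. They were at 15.6, 13.8 and 12.4 CPM in control mice 1, 3 and 9 and at 13.3, 13.9 and 11.8 CPM in KO mice 2, 4 and 10. The genotypes overlapped, with a difference of -0.09 ± 0.16 (SE, 95% interval -0.41 to 0.22, adjusted p = 0.733, edgeR). The TE difference was -0.68 ± 0.23 (SE, 95% interval -1.15 to -0.20, adjusted p = 0.0710, edgeR), the largest of the 10 genes, and it was called in 1 of 21 alternatives, with exon counts as the RNA measure (-0.69, adjusted p = 0.0368, edgeR). The adjusted p of the others went up to 0.193.

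**Figure D3:**
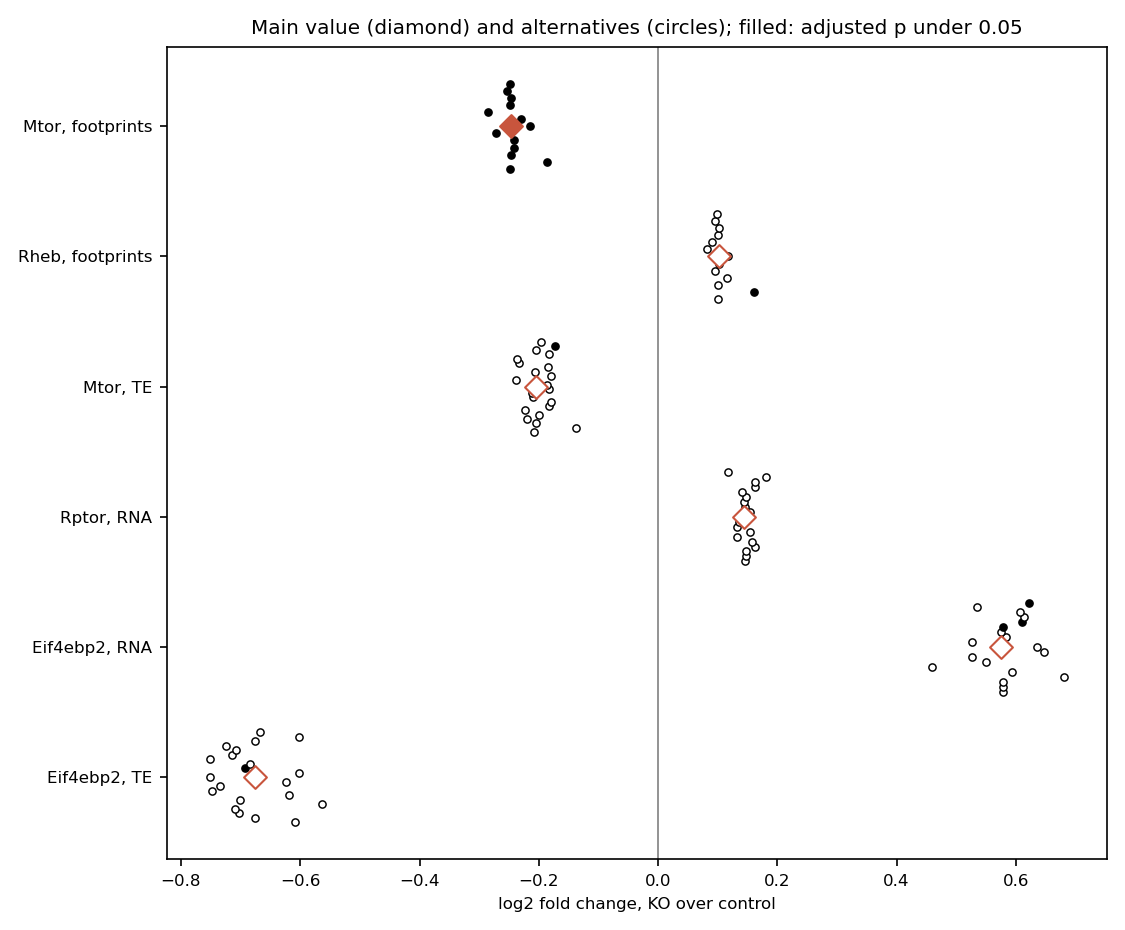
Log2 fold change of KO over control (x axis) of 6 member results, each as reported (diamond) and under its alternatives (circles, 1 per setting), filled where the adjusted p was under 0.05. All 13 circles of Mtor footprints are filled, between -0.29 and -0.19, and of Eif4ebp2 RNA 3 of 19 are.

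The members covered a wide range in the number of footprints per RNA count in control mice. The value, on the log2 scale, is the footprint minus RNA coefficient of the 14-library model, and its zero is set by the scaling. Eif4ebp2 stood highest at 1.90 ± 0.16 (SE), followed by Rheb at 0.79 ± 0.069, Eif4ebp1 at 0.39 ± 0.33, Rptor at -0.08 ± 0.058, Mtor at -0.10 ± 0.050, Tsc2 at -0.31 ± 0.066, Rictor at -0.55 ± 0.057, Rps6kb1 at -0.75 ± 0.094, Akt1 at -0.88 ± 0.090 and Tsc1 at -0.95 ± 0.070. The interval of Eif4ebp2 (1.56 to 2.24) lay apart from all others, and that of Rheb (0.65 to 0.94) overlapped only that of Eif4ebp1 (-0.29 to 1.07). From Rheb down to Tsc1, the interval of each gene overlapped that of the next gene in the order. Of the 10 genes 7 differed from 0 by edgeR, 2 higher and 5 lower, where 75.3% of 12145 genes did (36.5% higher and 38.9% lower), and the members' median was -0.20 beside -0.01 for all genes. Plain library sizes moved the median of all genes to -0.18, by over 0.1, and then Mtor (-0.26) and Rptor (-0.25) were also called lower. Mtor was called lower without mouse 8 too (-0.12, adjusted p = 0.0316, edgeR). With exon counts as the RNA measure Mtor (0.49, adjusted p = 5.53e-09) and Tsc2 (0.44, adjusted p = 4.11e-06, edgeR) changed side and were called higher, and the value of Eif4ebp2 was 1.15 (adjusted p = 2.67e-07, edgeR), still the highest of the 10 with Rheb next at 0.80. In KO mice the order of the first 2 genes was the same, with Eif4ebp2 at 1.22 ± 0.16 (SE) and Rheb at 0.73 ± 0.069, whereas Mtor was at -0.30 ± 0.051 and Rptor at -0.29 ± 0.059.

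**Figure D4:**
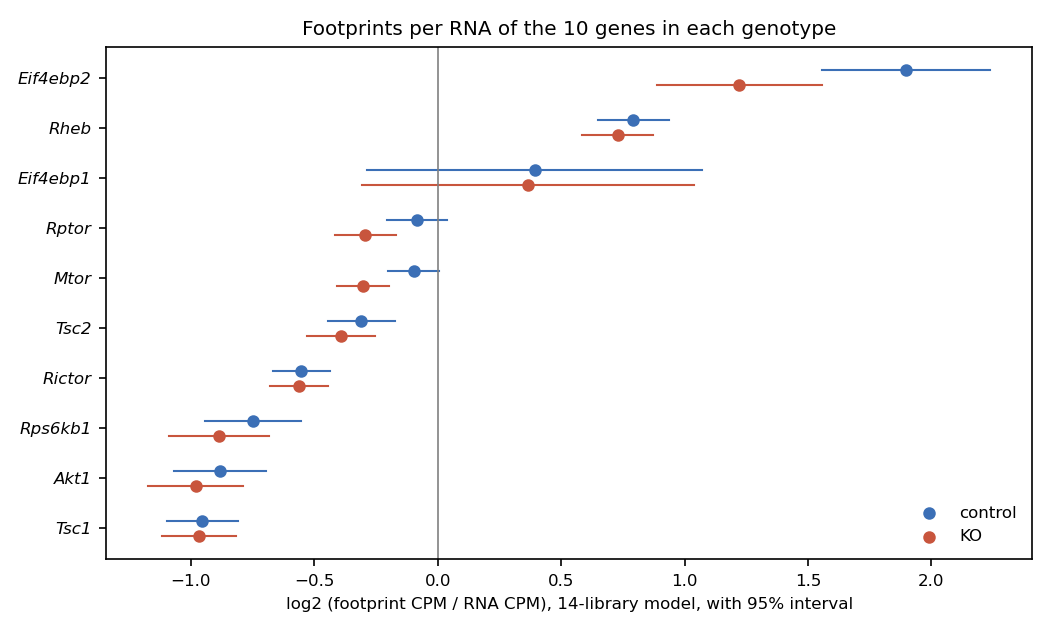
Log2 of footprint CPM over RNA CPM (x axis) of the 10 genes in control and KO mice, from the 14-library model with 95% intervals. Eif4ebp2 is highest in both genotypes (1.90 and 1.22) and Tsc1 (-0.95 in control) and Akt1 (-0.98 in KO) are lowest.

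The members differ in how much of their RNA count lies in the columns used here. Every RNA library came with a second column whose header ends in exon, and the count in the column used above, as a share of the exon count, was 97.6% ± 0.155 (SD, n = 4) for Tsc2 and 87.2% ± 1.41 for Mtor in control mice, 71.4% ± 2.82 for Akt1, 64.9% ± 2.12 for Rptor and 34.6% ± 5.01 for Eif4ebp2, against 54.7% over all genes. Rheb was the 1 member whose shares did not overlap between genotypes, at 61.3, 58.9, 58.5 and 55.0% in control mice 1, 3, 6 and 8 and 66.4, 66.9, 65.3 and 63.4% in KO mice 2, 4, 5 and 7. The KO mice were the higher ones. Of 13485 genes with RNA tested and exon counts in every library, 5.49% had shares that did not overlap, 3.8% with KO higher and 1.68% with KO lower. The difference for Rheb was 7.04 percentage points (p = 0.0286 by a two-sided exact permutation test, the lowest p possible with 4 mice against 4). With 10 genes tested, 1 gene at that lowest p cannot pass the correction (its adjusted p is 0.286), so the adjusted value gives no outcome for Rheb. The share of Rps6kb1 was 43.2% ± 2.14 (SD, n = 4) in control and 40.6% ± 0.702 (SD, n = 4) in KO mice (p = 0.0571 by the same exact test). Both p-values count KO mice 2, 4 and 7 as separate mice, although their RNA libraries stood close together. The shares were not tested with those libraries summed, so the p-values may overstate the evidence.

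Among the paralogs of the members, Rhebl1 was called in footprints and Akt2 and Rps6kb2 were not. Akt2 differed by 0.17 ± 0.13 (SE) in footprints (adjusted p = 0.363, edgeR) and by 0.22 ± 0.10 in RNA (adjusted p = 0.234, edgeR), and its RNA was called without mouse 8 and with only mice 1 to 4. Rhebl1, a Rheb relative, rose in footprints by 1.24 ± 0.39 (SE, adjusted p = 0.0102, edgeR) on 4 to 10 counts in control and 15 to 16 in KO libraries, a call lost without mouse 3 (adjusted p = 0.145). Rps6kb2 (0.25 ± 0.28, SE, adjusted p = 0.580, edgeR) was not called in footprints, and Eif4ebp3, with 0 to 5 footprints per library, was too low to test.

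A wider list of 97 pathway genes in the table, grouped by role, was called at about the rate of the whole table in footprints and RNA. In TE its rate was lower. In footprints 17 rose and 9 fell of 95 tested (27.4%), with a median of 0.04. Of all genes 25.5% were called there, 11.9% higher and 13.6% lower. In RNA 7 rose and 2 fell of 97 (9.28%), with a median of 0.06, where 7.41% of all genes were called (3.53% higher and 3.88% lower). In TE 3 rose and 1 fell of 95 (4.21%), with a median of -0.02, where 7.81% of all genes were called (3.4% higher and 4.41% lower). The RNA count was 2 to 17 when mice were left out in turn, 2 without mouse 2, 4 or 6, 3 without mouse 7, 5 without mouse 1 and 17 without mouse 8. Of all genes, 2.62% were called without mouse 4, the lowest of these shares, and 13% without mouse 8, the highest. The list count was 0 with KO mice 2, 4 and 7 summed and with only mice 5 to 8, where 0.579% and 0.652% of all genes were called, 15 in one fit over the 14 libraries (14.3% of all genes) and 30 with only mice 1 to 4 (24.1% of all genes). The footprint count was 14 by DESeq2 (14.8% of all genes) and 16 in one fit over the 14 libraries (13.9%). The TE count was 1 without mouse 4 (3.75% of all genes), 8 without mouse 5 (10.6%), 7 without mouse 8 (10.4%), 11 with mouse number as a replicate block (14.9%), 11 with only mice 1 to 4 (14.8%) and 13 with voom (15.7%).

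Amino acid sensing genes (29, the Rag GTPases and the complexes that control them) had 5 footprint rises and 1 fall, 20.7% of the list where 25.5% of all genes were called. Rragc, a Rag GTPase, was at 52.0 ± 1.71 CPM (SD, n = 3) in control and 69.9 ± 4.60 CPM (SD, n = 3) in KO footprints and rose by 0.44 ± 0.076 (SE, adjusted p = 2.35e-06, edgeR). Kptn, of the KICSTOR complex that restrains mTORC1, fell by 0.53 on the log2 scale in footprints (adjusted p = 5.97e-05, edgeR) and by 0.32 in RNA (adjusted p = 0.0387, edgeR). The RNA call of Kptn was lost without any 1 of mice 1 to 7 (adjusted p up to 0.590 over its alternatives), while the footprint call held in all 13. Lamtor3, of the Ragulator that anchors Rag GTPases, fell by 0.41 in RNA (adjusted p = 0.00780, edgeR), a call lost in the exon counts, with summed libraries and with only mice 5 to 8. On 16 to 42 KO footprints per library Lamtor3 had a TE difference of 1.01 ± 0.26 (SE, adjusted p = 0.0176, edgeR), lost in 7 of 22 alternatives. Nprl2, of the GATOR1 complex that inhibits Rag GTPases, rose in TE by 0.46 (adjusted p = 0.0225, edgeR), lost in 6 of 22. Its footprints rose by 0.32 (adjusted p = 0.000613, edgeR). Sesn3, of the sestrin family that inhibits mTORC1, rose by 0.25 in RNA (adjusted p = 0.0159, edgeR), lost in 7 of 19 alternatives. Sesn3 footprints rose by 0.30 (adjusted p = 7.29e-05, edgeR). For the footprint calls of Nprl2 and Sesn3 no alternatives are given.

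Of the 20 upstream PI3K and AKT genes, 4 rose and 2 fell in footprints (30%, beside 25.5% of all genes). The falls were in PI3K regulatory subunits, Pik3r3 by 0.22 (adjusted p = 0.00991) and Pik3r4 by 0.19 (adjusted p = 0.0181, edgeR), lost in 4 and 6 of 13 alternatives. In RNA Irs2, an insulin receptor substrate, was at 59.4 ± 3.70 CPM (SD, n = 4) in control and 75.7 ± 7.05 CPM (SD, n = 4) in KO mice, a rise of 0.35 (adjusted p = 0.0140, edgeR) that was lost in 7 of 19. Irs2 footprints rose by 0.17 (adjusted p = 0.0363, edgeR). Igf1r, a receptor of insulin-like growth factor, rose by 0.21 in RNA (adjusted p = 0.0423, edgeR), lost in 11 of 19. Igf1r footprints were not called (-0.07, adjusted p = 0.561, edgeR). Of 11 energy and stress genes, 3 rose in footprints and 0 fell (27.3%, beside 25.5% of all genes). Ddit4 (REDD1), a stress-induced inhibitor of mTORC1, was at 54.4 ± 0.0298 CPM (SD, n = 3) in control and 71.6 ± 4.21 CPM (SD, n = 3) in KO footprints and rose by 0.39 (adjusted p = 1.29e-05, edgeR). Cab39, the scaffold of the LKB1 kinase, rose by 0.32 in footprints (adjusted p = 7.55e-08) and by 0.34 in TE (adjusted p = 0.00997, edgeR), with the TE call lost when libraries of KO mice 2, 4 and 7 were summed.

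Of 15 translation effectors, 13 were tested in footprints, where 1 rose and 4 fell (38.5%, beside 25.5% of all genes, with 11.9% higher and 13.6% lower). Eif4g1, the scaffold of the cap-binding complex that 4E-BPs displace, fell by 0.46 in footprints, where control libraries averaged 514 ± 8.96 CPM (SD, n = 3) and KO libraries 372 ± 9.99 CPM (SD, n = 3), at an adjusted p of 9.64e-24 (edgeR), with RNA at 485 ± 94.8 and 474 ± 24.2 CPM (SD, n = 4). Its TE difference of -0.44 ± 0.14 (SE, adjusted p = 0.0514, edgeR) was not called. Eif4b, a helicase cofactor and S6 kinase substrate, fell by 0.17 (adjusted p = 0.00108) and Larp1, which binds TOP mRNAs, by 0.20 (adjusted p = 0.0110, edgeR), the second lost in 5 of 13 alternatives. Pdcd4, an inhibitor of the eIF4A helicase that S6 kinase marks for removal, rose in RNA by 0.30 (adjusted p = 0.0333) and fell in footprints by 0.15 (adjusted p = 0.00298, edgeR). Its TE fell by 0.46 (adjusted p = 0.00922, edgeR), a call lost without mouse 4 (adjusted p = 0.0530), while the RNA call was lost in 11 of 19 alternatives and the footprint call in 4 of 13. Mknk2, a kinase of eIF4E, rose in footprints by 0.40 (adjusted p = 0.0176, edgeR), lost by DESeq2 and without mouse 1, 2 or 4.

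Elsewhere in the list, Prr5l, an mTORC2 partner, rose in footprints by 1.01 ± 0.31 (SE, adjusted p = 0.0101, edgeR) on 9 to 15 counts in control and 17 to 27 in KO libraries, a call lost by DESeq2 and without mouse 10. It was the 1 called of 9 further complex subunits and assembly factors (11.1%, beside 25.5% of all genes). Tbc1d7, the third subunit of the TSC complex, rose in RNA by 0.28 (adjusted p = 0.0295) and in footprints by 0.35 (adjusted p = 0.00723, edgeR), lost in 9 of 19 and 3 of 13 alternatives. Atg13, a subunit of the ULK1 complex that starts autophagy and is held back by mTORC1, rose in RNA by 0.49 (adjusted p = 0.00426), with means of 46.1 ± 6.10 and 64.8 ± 2.05 CPM (SD, n = 4), and in footprints by 0.30 (adjusted p = 0.00103, edgeR). The RNA call of Atg13 was lost with summed libraries and with only mice 5 to 8 (adjusted p up to 0.178). Ulk2 fell in footprints by 0.23 (adjusted p = 0.0469, edgeR), lost in 8 of 13.

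**Figure D5:**
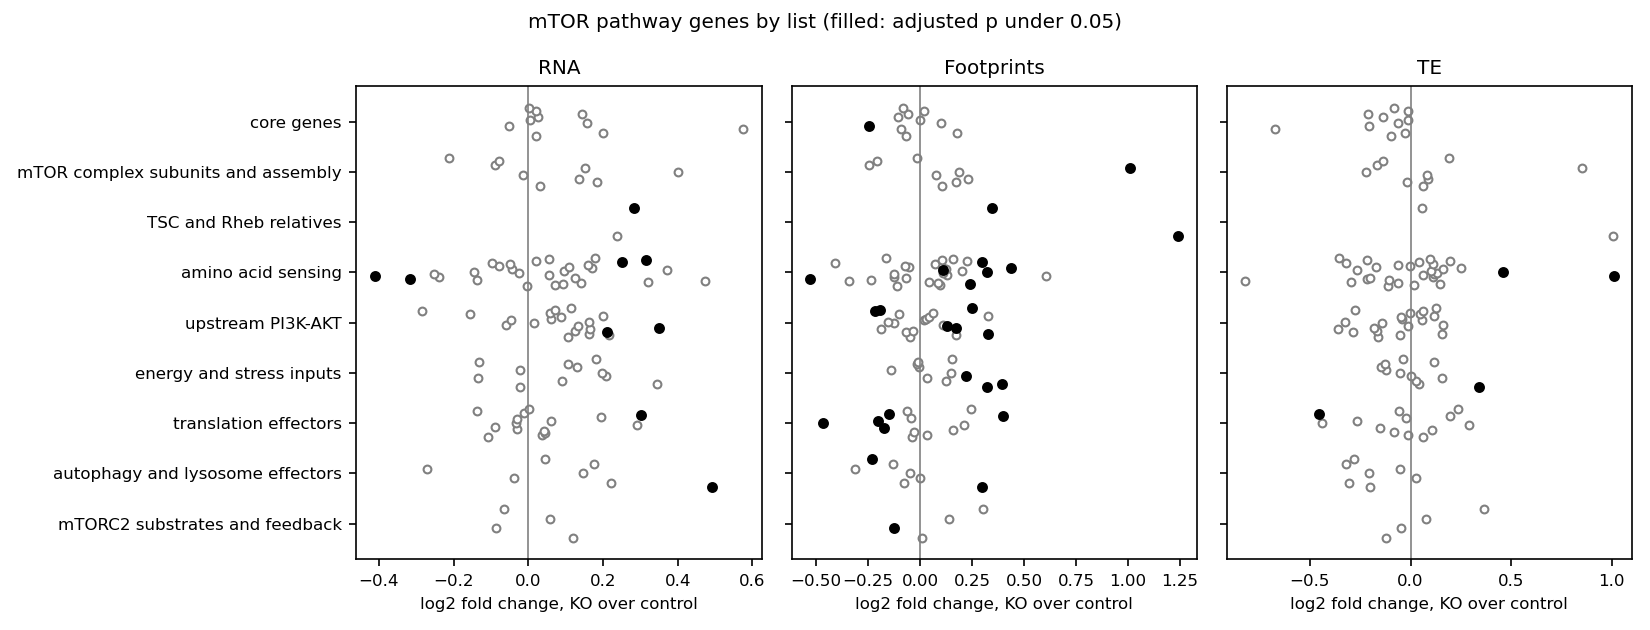
Log2 fold change of KO over control (x axes, which differ between panels) of the 10 core genes and 97 further pathway genes by list, in RNA, footprints and TE, with filled points for an adjusted p under 0.05. In footprints 17 of the wider genes are called higher and 9 lower, on both sides of 0 in the amino acid sensing, PI3K and AKT, translation and autophagy lists.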

How the data were processed

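The data are raw gene counts, whole numbers in a single table as the authors deposited it, with no scaling. Per the submitters' processing notes the tools included Bowtie2, STAR 2.5 and featureCounts (Subread 1.4.6), with mm9 and mm10 named and no role given for either. The region and strand setting counted are not given in the sources used here. Per the labels' protocols, footprints came from RNase I-digested lysates and sucrose gradient monosomes with a ligation-free library method, and the directional RNA libraries were depleted of ribosomal RNA. In 2849 genes the footprint and plain RNA columns hold no value.

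Counts were tested with edgeR 4.0.16 (R 4.3.3): quasi-likelihood F test, TMM, filterByExpr at a minimum count of 10, Benjamini-Hochberg over all genes tested, two-sided. TE was the interaction of genotype and assay over 14 libraries with joint TMM factors, for genes kept in both assays. Standard errors come from the F statistic. Scripts were tested on simulated data. Alternatives, run also with DESeq2 1.42.0 and limma 3.58.1, changed normalization, filter, RNA columns, blocks, tools and libraries. Robust quasi-likelihood fits and TMM within each assay were added after seeing the data.

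Per the labels mice 1 to 4 are the same animals in both assays. Deviations from group means of RNA and footprints correlated at 0.0031, 0.011, 0.034 and -0.013 in mice 1, 2, 3 and 4, across 12145 genes. The best correlation with another mouse was 0.021, 0.0045, -0.0056 and 0.013. It was above the same-mouse value for mice 1 and 4 and below it for mice 2 and 3. These values did not decide whether the pairing used by the mouse block holds. The members and lists were chosen with earlier results of these data known. Named wider genes were the called ones with a mean of at least 1 CPM, up to 8 with the largest rise and 8 with the largest fall per comparison. Some genes that this rule or the likeness measure selects are not reported here. Depth sets precision: members with fewer than about 100 counts per library have wide intervals.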

Additional observations from a re-analysis of the deposited data

How the results depend on the processing

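Of 676 alternative values over 40 results, 608 kept their direction and side of the threshold, 11 passed it only under the alternative, 55 differed in sign with neither value called, and 2 reversed: footprints per RNA of Mtor (0.49) and Tsc2 (0.44) with exon counts. Members called in RNA numbered 1 (Eif4ebp2) in one fit over 14 libraries, in exon counts and with only mice 1 to 4. In footprints they numbered 2 on plain library sizes, and 1 to 2 when mice were left out in turn (Tsc2 without mouse 1). In TE they numbered 1 with exon counts (Eif4ebp2), 1 with mouse number as a replicate block (Akt1) and 1 with voom (Mtor). Genes called in RNA (1001) numbered 356 to 1763 with mice left out in turn, 1739 in one fit over 14 libraries, 79 with KO mice 2, 4 and 7 summed, 36 with control mice 1 and 3 summed too, 88 with only mice 5 to 8 and 3273 with only mice 1 to 4. In footprints (3102) they numbered 1801 by DESeq2 and 1684 in one fit over 14 libraries. In TE (949) they numbered 419 to 1289 with mice left out in turn, 1811 with the replicate block, 543 and 579 with summed libraries, 1806 with only mice 1 to 4 and 1903 with voom. On plain library sizes 66.3% of footprint calls and 68.2% of TE calls were higher, against 46.7% and 43.5%. The cause of these shifts was not tested. The block changed no other member call. Depth limits Eif4ebp1 and Eif4ebp2 most.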
